A study of Homo sapiens with 6 samples.

Results

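The homeobox genes CDX1, CDX2, MSX1, MSX2, MIXL1 and NKX1-2 were followed across 6 RNA sequencing libraries of PA-1 cells. They are 6 of the 20494 genes in the deposited table. They lie on chromosomes 5, 13, 4, 5, 1 and 10, in the order named. They were chosen by symbol after their levels had been seen, so the levels and the differences below describe these libraries and are not tests. PA-1 is a human cell line from an ovarian teratocarcinoma, a tumour of pluripotent germ cells. Each group held 1 library. Cells of 5 groups were transfected with 8 µg of plasmid for 48 h, carrying RIPK1, RIPK2, RIPK3 or RIPK4, members of the receptor-interacting protein kinase family, or no insert (pCDNA3.1, the Vector library). Cells of the remaining group took 200 ng of Wnt3a, the secreted ligand of the canonical Wnt pathway, for 16 h. All 6 carry a label under transfection, and from the labels it is not clear if plasmid was given along with the ligand. Ligand, plasmid and time therefore cannot be told apart between Wnt3a and the others.

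Homeobox genes encode DNA-binding proteins that give cells of the embryo their position. CDX1 and CDX2 are caudal-type factors of the posterior embryo, where they act upstream of HOX genes, and later of the intestinal epithelium. MSX1 and MSX2 are repressors of the neural crest, limb and face that respond to bone morphogenetic protein (BMP). MIXL1 marks the primitive streak, where mesoderm and endoderm arise, and NKX1-2 marks the caudal epiblast of mouse and chick embryos. Canonical Wnt signalling patterns the posterior end of the embryo through beta-catenin and its DNA-binding partners of the TCF/LEF family.

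The stretch before the gene start is shown for 4 of the genes, CDX2 and MIXL1 because each held 1 core word of the TCF/LEF site, and MSX1 and MSX2 to set side by side a pair of relatives whose levels differed in span. RefSeq promoters (GRCh38.p14) matched 5 of the 6 genes by gene identifier, and the 250 bases before the start were read 5′ to 3′ in the direction of the gene. In CDX2 (chr13:27969316-27969565, minus strand) and MIXL1 (chr1:226223414-226223663, plus strand) the capitals mark the TCF/LEF word. In MSX1 (chr4:4859415-4859664, plus strand) and MSX2 (chr5:174724332-174724581, plus strand) the capitals mark CCAAT or its reverse complement.
CDX2: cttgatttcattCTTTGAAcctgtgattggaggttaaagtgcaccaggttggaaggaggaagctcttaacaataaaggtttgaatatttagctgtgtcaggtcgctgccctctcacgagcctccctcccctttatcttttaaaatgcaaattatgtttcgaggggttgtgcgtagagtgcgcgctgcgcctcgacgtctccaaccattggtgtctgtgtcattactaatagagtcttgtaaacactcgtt
MIXL1: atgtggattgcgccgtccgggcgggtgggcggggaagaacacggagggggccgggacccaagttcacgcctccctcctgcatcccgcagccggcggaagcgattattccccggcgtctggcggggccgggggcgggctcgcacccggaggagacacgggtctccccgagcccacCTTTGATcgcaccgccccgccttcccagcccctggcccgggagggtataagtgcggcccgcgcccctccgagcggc
MSX1: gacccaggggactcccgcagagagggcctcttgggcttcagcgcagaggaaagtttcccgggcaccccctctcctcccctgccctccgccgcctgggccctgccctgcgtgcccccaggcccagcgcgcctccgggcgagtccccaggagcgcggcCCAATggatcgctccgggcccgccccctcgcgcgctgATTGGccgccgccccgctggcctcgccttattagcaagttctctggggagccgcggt
MSX2: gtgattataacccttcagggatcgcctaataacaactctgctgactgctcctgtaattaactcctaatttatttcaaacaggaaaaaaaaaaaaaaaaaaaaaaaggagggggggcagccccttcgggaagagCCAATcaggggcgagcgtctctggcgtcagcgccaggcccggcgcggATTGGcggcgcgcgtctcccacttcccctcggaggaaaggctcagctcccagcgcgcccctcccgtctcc

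The word CTTTGAT was searched on both strands, as were CTTTGAA and the forms CTTTGTA and CTTTGTT. At least 1 of them lay in 9.62% of the 15443 promoters matched to the table. MIXL1 held CTTTGAT beginning 76 bases before the start, a word found in 1.68% of promoters. CDX2 held CTTTGAA beginning 238 bases before the start, a word found in 3.26%. The windows of MSX1, MSX2 and NKX1-2 held none of the 4 words, which says only that these letters are absent from this stretch. CCAAT lay in 34.6% of promoters. MSX1 held it 94 bases before the start and, on the opposite strand, at 57, and MSX2 at 117 and, on the opposite strand, at 70. CDX2 also held CCAAT, not marked above, at 225 and 45, both on the opposite strand. NKX1-2 held it at 95, and MIXL1 did not hold it. The MSX1 window was 74.0% G and C, the MSX2 window 55.6%.

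Library totals came to 17.2 M to 19.5 M reads, recovered from the RPKM values, which scale reads by gene length and library size. Of all genes, 11881 had a mean of at least 1 RPKM over the libraries and are the background below. RIPK4 reached 17.9 RPKM where it was transfected and was listed at 0 in the other 5 libraries, and RIPK3, RIPK2 and RIPK1 were likewise highest in the library of their name, RIPK1 by 1.30-fold over Vector (95% counting interval 1.2 to 1.41). The pluripotency genes LIN28A (213 to 392 RPKM), SOX2 (48.1 to 149) and SALL4 (37.7 to 55.2) were present in every library, whereas NANOG stayed at 0.0977 to 0.234 RPKM and TDGF1 was listed at 0. Of 9 pluripotency genes kept, SOX2 was at least 2-fold lower than Vector with Wnt3a (3.09-fold), RIPK2 (2.35-fold) and RIPK3 (2.17-fold), and PRDM14 with Wnt3a (2.26-fold). Of all genes 1.43%, 0.699% and 0.581% were at least 2-fold lower with Wnt3a, RIPK2 and RIPK3. Differences from Vector moved with the GC content of the transcript in 4 of the 5 comparisons, with Spearman rho across 11808 genes of 0.692 for Wnt3a, 0.662 for RIPK2, 0.544 for RIPK3, 0.666 for RIPK4 and -0.0814 for RIPK1. Where it changes a call, and for the main differences, a value is therefore given also with a running median over GC content removed. No group has a replicate, so no SD or p-value is given. Bracketed ranges are 95% intervals for counting error alone. In such bulk samples, more cells expressing a gene and more RNA in each cell cannot be told apart.

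All 6 genes passed the mean of 1 RPKM. CDX1, CDX2 and MIXL1 stayed under 1 RPKM in RIPK1, RIPK2, RIPK3 and Vector and passed only through Wnt3a and RIPK4, so they had to differ there. With the difference of log2(RPKM + 1) as the scale, 5 of the 6 were at least 2-fold higher with Wnt3a than with Vector, against 0.673% of all genes higher and 1.43% lower. With RIPK4 5 were at least 2-fold higher than with Vector, against 0.396% of all genes higher and 0.387% lower. With RIPK2 MSX1 alone was so, against 1.59% of all genes higher and 0.699% lower, and with RIPK3 again MSX1 alone, against 1.47% higher and 0.581% lower. With RIPK1 none was, against 0.295% of all genes higher and 0.547% lower. With the GC trend removed, 4 were higher with Wnt3a against 0.356% of all genes, 5 with RIPK4 against 0.271%, and 1 each with RIPK2 and RIPK3 against 1.03% and 1.06%. For CDX2, MIXL1 and NKX1-2 the GC content used is that of a transcript longer than the length taken for the gene. The counts with the trend removed depend on it. Since these contrasts chose the genes and share the Vector library, the counts are a description.

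**Figure D1:**
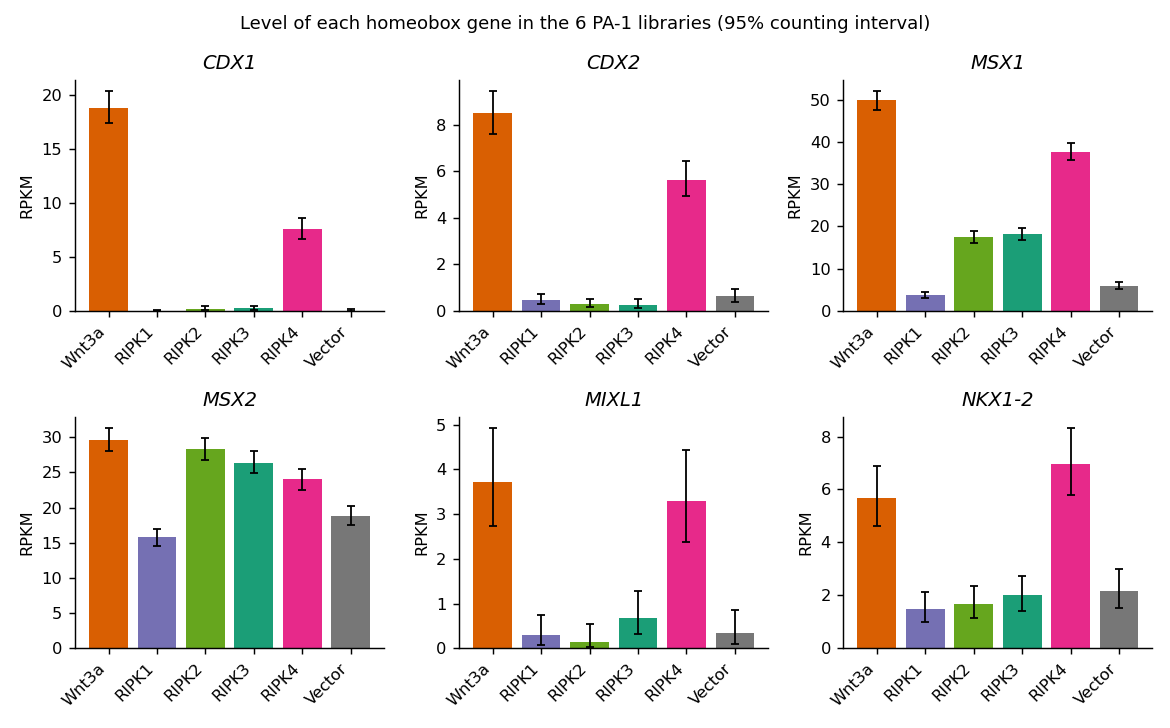
RPKM of each gene (vertical axes, separate scales from 0) in the 6 libraries (horizontal axes), with bars for 1 library each and error bars for the exact Poisson 95% counting interval. CDX1, CDX2, MIXL1 and NKX1-2 stand higher in Wnt3a and RIPK4 than in the other 4 libraries, MSX1 is also above Vector in RIPK2 and RIPK3, and MSX2 lies between 15.8 and 29.6 RPKM throughout.

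The caudal factor CDX1 had the widest range of the 6 on the log2(RPKM + 1) scale. It stood at 18.8 RPKM (618 reads) with Wnt3a, 0 with RIPK1, 0.205 (7 reads) with RIPK2, 0.237 (8 reads) with RIPK3 and 7.61 (247 reads) with RIPK4, against 0.0327 RPKM (1 read) with Vector. Against the single Vector read, Wnt3a was 576-fold higher (103 to 22800) and RIPK4 233-fold higher (41.3 to 9220). CDX1 was thus near the limit of detection in 4 libraries, where 3 reads are worth 0.0868 to 0.0982 RPKM. In Wnt3a cells 82.7% of the table's genes lay below it, and in RIPK4 cells 65.1%. The order from Wnt3a to RIPK4 to RIPK3 held beyond counting error, with RIPK4 over RIPK3 at 32.2-fold (16.1 to 75.3), while no neighbouring step among RIPK3, RIPK2, Vector and RIPK1 exceeded it. RIPK3 and RIPK2 each lay above RIPK1, which had no read, with lower limits of the ratio of 1.75 and 1.46. The log2 differences of 4.26 with Wnt3a and 3.06 with RIPK4 ranked highest of all genes in both comparisons, the transfected RIPK4 left aside, and ranked highest at 3.84 and 2.68 with the GC trend removed.

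CDX2, its relative, followed with a smaller span. Its level was 8.48 RPKM with Wnt3a, 0.466 with RIPK1, 0.298 with RIPK2, 0.276 with RIPK3 and 5.64 with RIPK4, against 0.638 RPKM with Vector. High values were again those of Wnt3a and RIPK4. The ratio of Wnt3a to RIPK4 was 1.5 (1.26 to 1.79). Over Vector, Wnt3a was 13.3-fold higher (8.70 to 21.2) and RIPK4 8.84-fold (5.74 to 14.2). CDX2 was lower with RIPK2 and with RIPK3 than with Vector, at ratios of 0.467 (0.212 to 0.977) and 0.432 (0.190 to 0.923), from 12 and 11 reads against 23. Both stayed short of 2-fold on the log2(RPKM + 1) scale, at -0.34 and -0.36. CDX1 did not share that direction in these libraries, but with 7 and 8 reads against 1 its ratios of 6.26 (0.804 to 282) and 7.23 (0.969 to 321) had intervals that include 1.

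The balance between the caudal genes differed as well. CDX1 was 2.22 times CDX2 in RPKM with Wnt3a (1.94 to 2.55) and 1.35 times with RIPK4 (1.12 to 1.63), against 0.0513 times with Vector (0.00124 to 0.316). RIPK2 and RIPK3 gave 0.688 (0.230 to 1.90) and 0.858 (0.3 to 2.34), which do not place one gene above the other. RIPK1, with no CDX1 read, allowed a ratio of up to 0.253. The sum of both was 27.3 RPKM with Wnt3a and 13.3 with RIPK4, against 0.671 with Vector. The ratio rests on the authors' gene lengths. Of 14 lengths that fitted the RPKM values of CDX2, 2089 bases was taken, against 4053 for the longest GENCODE 29 transcript. CDX4, the remaining caudal gene, was at 0 to 0.0639 RPKM.

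MIXL1 rested on few reads. It stood at 3.71 RPKM (48 reads) with Wnt3a, 0.294 (4) with RIPK1, 0.149 (2) with RIPK2, 0.676 (9) with RIPK3 and 3.28 (42) with RIPK4, against 0.332 RPKM (4) with Vector. Wnt3a and RIPK4 stood above the others and not apart from each other, with RIPK4 over Wnt3a at 0.884 (0.570 to 1.37). RIPK3 was the highest of the remaining libraries, and its ratio to Vector of 2.03 (0.568 to 9.04) includes 1. Over Vector, Wnt3a was 11.2-fold higher (4.09 to 42.7) and RIPK4 9.88-fold (3.59 to 38.0). Of 42 gene lengths that fitted its RPKM values, 698 bases was taken, against 2005 for the longest GENCODE 29 transcript. The read numbers depend on that choice. The level of MIXL1 relative to other genes depends on the authors' length.

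NKX1-2 was the 1 gene of the 6 that was highest with RIPK4. It stood at 5.68 RPKM (102 reads) with Wnt3a, 1.48 (28) with RIPK1, 1.66 (31) with RIPK2, 2.0 (37) with RIPK3 and 6.98 (124) with RIPK4, against 2.15 RPKM (36) with Vector. The lead of RIPK4 over Wnt3a, 1.23-fold, lay within counting error (0.938 to 1.61). Over Vector, Wnt3a was 2.64-fold higher (1.79 to 3.97) and RIPK4 3.24-fold (2.22 to 4.84). The log2 difference of 1.08 with Wnt3a fell short of 2-fold with the GC trend removed, at 0.85, whereas that with RIPK4, 1.34, remained above it at 1.13. Of 30 lengths that fitted the RPKM values of NKX1-2, 970 bases was taken, against 3364 for the longest GENCODE 29 transcript. The GC trend was read at the GC content of that longest transcript, so 0.85 and 1.13 depend on it. Another gene, AL445237.1, overlaps NKX1-2 in GENCODE 29. Whether the libraries keep the strand is not stated, so reads of the pair cannot be told apart.

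MSX1 had graded levels. It stood at 49.8 RPKM with Wnt3a, 3.71 with RIPK1, 17.4 with RIPK2, 18.2 with RIPK3 and 37.6 with RIPK4, against 5.90 RPKM with Vector. Each step in the order of its levels exceeded counting error except RIPK3 over RIPK2 at 1.05-fold (0.938 to 1.17). Wnt3a was 8.43-fold over Vector (7.27 to 9.82) and RIPK4 6.37-fold (5.48 to 7.44). MSX1 was 3.08-fold over Vector with RIPK3 (2.62 to 3.63) and 2.94-fold with RIPK2 (2.5 to 3.47), and 0.628 of Vector with RIPK1 (0.502 to 0.784). RIPK2 and RIPK3 remained at least 2-fold above Vector with the GC trend removed, at log2 differences of 1.10 and 1.24. The gain of RIPK2 and RIPK3 over Vector, in RPKM, was 26.1% and 28.0% of that with Wnt3a, and the gain with RIPK4 72.3%. For the other genes the gain with RIPK4 was 40.3% of that with Wnt3a for CDX1, 63.8% for CDX2, 48.0% for MSX2, 87.3% for MIXL1 and 137% for NKX1-2.

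MSX2 differed least of the 6 from Vector with Wnt3a and with RIPK4. It stood at 29.6 RPKM with Wnt3a, 15.8 with RIPK1, 28.3 with RIPK2, 26.4 with RIPK3 and 24.0 with RIPK4, against 18.8 RPKM with Vector. None of its differences from Vector reached 2-fold, and the ratios were 1.57 with Wnt3a (1.43 to 1.73), 1.5 with RIPK2 (1.37 to 1.65), 1.41 with RIPK3 (1.28 to 1.55) and 1.28 with RIPK4 (1.16 to 1.41). With RIPK2 and RIPK3 its log2 differences of 0.56 and 0.47 were next to those of MSX1 in size. Here RIPK4 was below RIPK2, at 0.848-fold (0.779 to 0.924), and below RIPK3, at 0.907-fold (0.831 to 0.989). Wnt3a, RIPK2 and RIPK3 were not separable as neighbours in the order. The MSX pair thus changed places, since MSX1 was 1.68 times MSX2 with Wnt3a (1.56 to 1.81) and 1.57 times with RIPK4 (1.44 to 1.70), against 0.314 times with Vector (0.267 to 0.368). With RIPK1, RIPK2 and RIPK3 MSX2 also exceeded MSX1, at ratios of MSX1 to MSX2 of 0.234, 0.614 and 0.687.

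**Figure D2:**
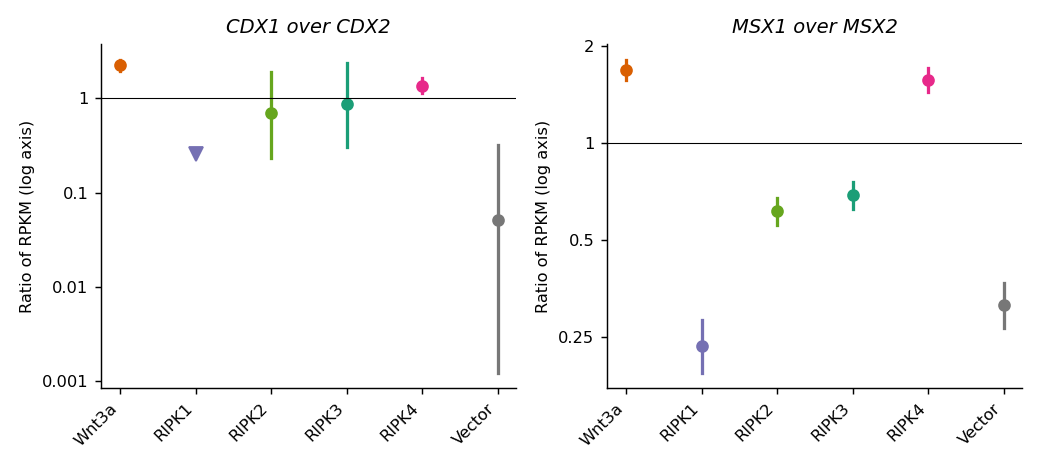
Ratio of RPKM within each library (log axes, line at equal levels) for CDX1 over CDX2 and MSX1 over MSX2, with points for 1 library each, lines for the 95% counting interval and a downward triangle for the upper limit of a ratio with no CDX1 read. Wnt3a and RIPK4 are the libraries in which CDX1 exceeds CDX2 beyond counting error and in which MSX1 exceeds MSX2.

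RIPK1 lay on the other side of Vector. All 6 genes were lower with RIPK1 than with Vector, with a median log2 difference of -0.20 against 0.01 for all genes. Of all genes 47.8% were lower. For MSX1 and MSX2 this exceeded counting error, at ratios of 0.628 (0.502 to 0.784) and 0.841 (0.756 to 0.935). For CDX2 (0.730, 0.376 to 1.40), NKX1-2 (0.688, 0.404 to 1.16) and MIXL1 (0.884, 0.165 to 4.75) the interval included 1, and CDX1 was under 3 reads in both.

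Against the other kinases, RIPK4 gave a like order. Over RIPK1, RIPK2 and RIPK3, 5 of the 6 genes were at least 2-fold higher, against 0.724%, 0.455% and 0.387% of all genes, and MSX2 was the exception. CDX1 was at least 87.7-fold higher than with RIPK1, taking the RIPK1 library at its floor of 3 reads, 37.1-fold than with RIPK2 (17.8 to 93.4) and 32.2-fold than with RIPK3. CDX2 was 12.1-fold (7.57 to 20.5), 18.9-fold (10.6 to 37.2) and 20.5-fold (11.2 to 41.6) higher than with RIPK1, RIPK2 and RIPK3. MIXL1 was 11.2-fold over RIPK1 (4.06 to 42.9) and 4.86-fold over RIPK3 (2.33 to 11.4), and NKX1-2 3.49-fold over RIPK3 (2.40 to 5.19). MSX1 was 10.1-fold over RIPK1 (8.51 to 12.2) but 2.17-fold over RIPK2 (1.97 to 2.38) and 2.07-fold over RIPK3 (1.88 to 2.27), and with the GC trend removed RIPK4 over RIPK3 came to 0.93 on the log2 scale, short of 2-fold, which left 4 genes against 0.339% of all genes.

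These contrasts differ in their GC trend. RIPK4 over RIPK2 had a Spearman rho with GC of -0.172 and RIPK4 over RIPK3 one of 0.176, against 0.734 for RIPK4 over RIPK1. The trend at the 6 genes was between -0.01 and 0.11 on the log2 scale in the first and second of these, and their median difference was 1.74 over RIPK2 and 1.38 over RIPK3, against 0.06 and 0.02 for all genes. With the trend removed the medians were 1.72 and 1.33.

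**Figure D3:**
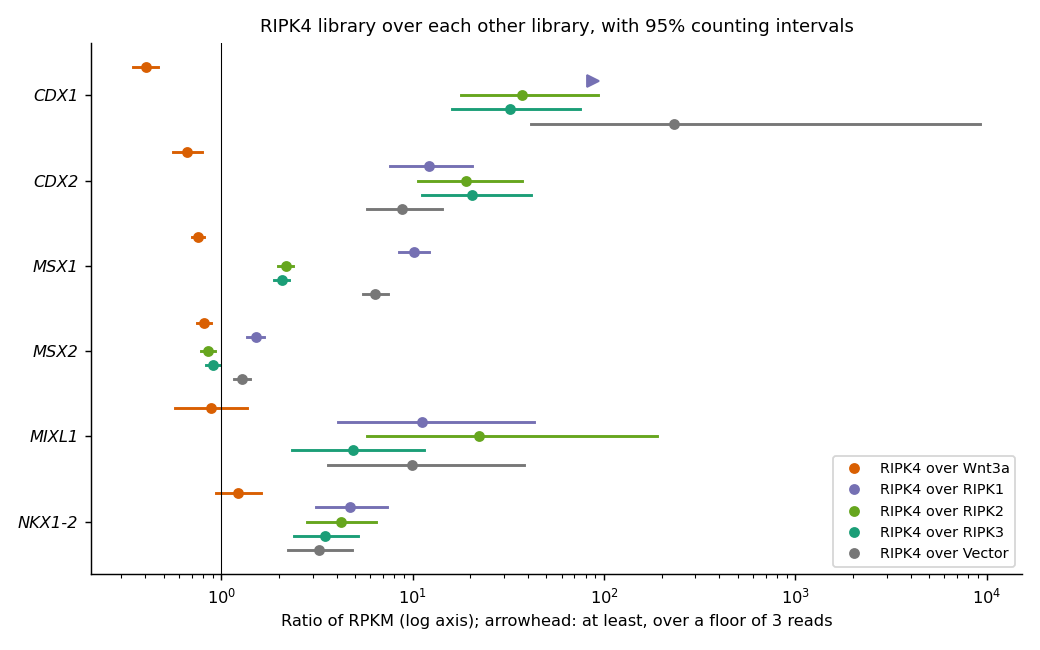
Ratio of RPKM in the RIPK4 library to that in each other library (log axis) for the 6 genes, with points for the ratio, lines for the 95% counting interval and an arrowhead for the ratio over a floor of 3 reads. All but MSX2 lie right of 1 against RIPK1, RIPK2, RIPK3 and Vector, and the ratios to Wnt3a lie between 0.404 for CDX1 and 1.23 for NKX1-2.

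Set directly against Wnt3a, RIPK4 had lower CDX1, CDX2, MSX1 and MSX2. The ratios of RIPK4 to Wnt3a were 0.404 for CDX1 (0.347 to 0.469), 0.666 for CDX2 (0.558 to 0.793), 0.756 for MSX1 (0.703 to 0.812) and 0.810 for MSX2 (0.744 to 0.882). CDX1 was the 1 gene of the 6 at least 2-fold lower, against 0.143% of all genes lower and 0.295% higher. For MIXL1 and NKX1-2 the interval of the ratio included 1, which does not show that their levels are alike.

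**Figure D4:**
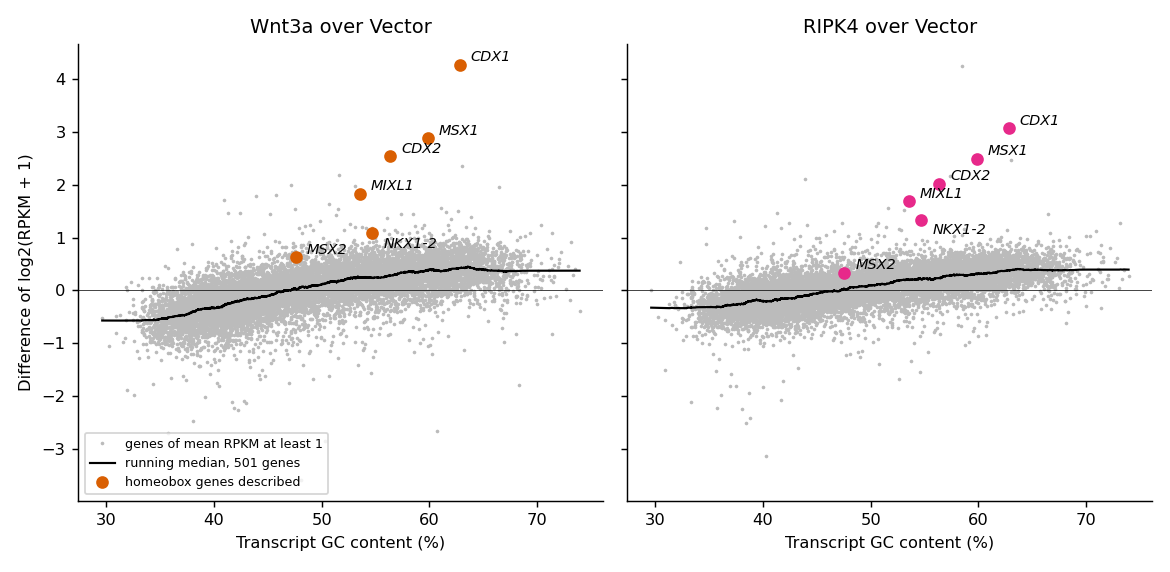
Difference of log2(RPKM + 1) from Vector (vertical axis) against transcript GC content in percent (horizontal axis) for genes of mean RPKM at least 1 (grey), with their running median over GC content (black) and the 6 genes described (coloured), for Wnt3a and RIPK4. CDX1, CDX2, MSX1 and MIXL1 stand 1.48 to 3.84 above the running median, and the grey point at 4.24 in the RIPK4 panel is the transfected RIPK4.

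The level of the lower of Wnt3a and RIPK4 was set beside the highest of the other 4 libraries. Of 11881 genes, 8 (0.0673%) had a gap of at least 2-fold on the log2(RPKM + 1) scale. They were CDX1 (gap 2.80), CDX2 (2.02), MIXL1 (1.35), NKX1-2 (1.08) and MSX1 (1.01), with NKD1 (1.27), DACT1 (1.21) and RNF43 (1.05). The last 3 encode feedback inhibitors of the Wnt pathway. MSX2 had a gap of -0.23. Since the 6 genes were chosen for such values, their place among the 8 is not evidence.

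Genes most like each of the 6 were sought by Pearson correlation of log2(RPKM + 1) over the 6 libraries, among genes of mean RPKM at least 1 that range over at least 2-fold. The 871 candidates share their libraries and GC trend, and 29 of them had a correlation of at least 0.95 with CDX1, so the names are a description. CDX1 was most like NKD1 (0.996) and DACT1 (0.995), followed by LINGO1, RNF43 and KIAA1522. CDX2 was most like TUBB2A and NKD2 (both 0.998), then C1QL1, RNF43 and IGDCC3. MIXL1 and NKX1-2 shared HES6, a member of the HES repressor family, as the first (0.993 and 0.989), and MIXL1 itself was among the 5 most like NKX1-2 (0.971). MSX1 was most like NOTUM, a secreted Wnt inhibitor (0.996), which stood at 4.91 and 4.92 RPKM with RIPK2 and RIPK3, against 2.07 with Vector. MSX2, among 872 candidates, was most like CCND1, the cell cycle regulator cyclin D1 (0.987).

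Other homeobox genes were mostly low. Of the 130 other ANTP and PRD class genes examined, HOX genes included, 18 had a mean of at least 1 RPKM. With Wnt3a 1 of the 18 was at least 2-fold higher and 1 lower, against 0.673% and 1.43% of all genes. With RIPK4 none was, against 0.396% of all genes higher and 0.387% lower. The medians were 0.04 with Wnt3a and 0.05 with RIPK4, against 0.04 and 0.05 for all genes. HOXA3, HOXA7 and HOXD13 had log2 differences of -0.34 to 0.08 from Vector, and 11 of the 39 HOX genes were listed at 0 in every library. PITX1, a factor of the hindlimb, was 2.10-fold higher with Wnt3a (1.91 to 2.31), a difference of 1.02 that came to 0.65 with the GC trend removed. DLX5, a BMP-responsive factor of the neural plate border, was lower with Wnt3a, at 2.37 against 6.16 RPKM with Vector.

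**Figure D5:**
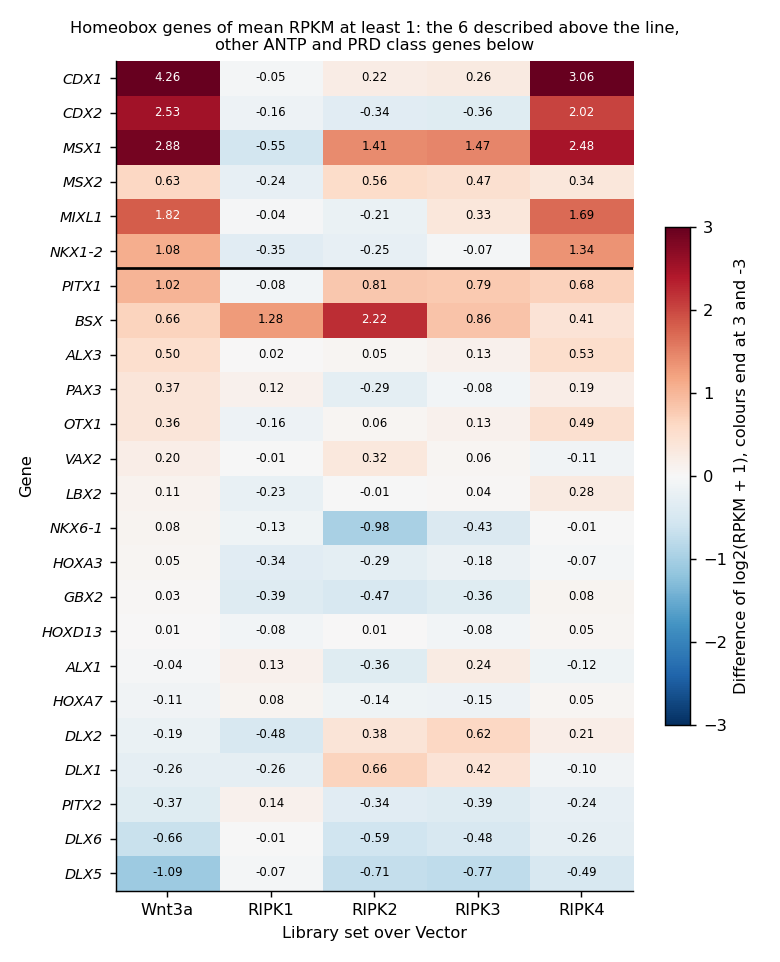
Difference of log2(RPKM + 1) from Vector (colour and printed value) for the 6 genes above the line and 18 other homeobox genes below it, in the 5 libraries set over Vector. Values of 1 or more with Wnt3a are those of CDX1, CDX2, MSX1, MIXL1, NKX1-2 and PITX1, and BSX reaches 2.22 with RIPK2.

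Few of the genes that surround these factors in the embryo passed the filter, and those that did were mostly within 2-fold of Vector. Of 27 other primitive streak and mesendoderm genes, 11 passed the filter. With Wnt3a and with RIPK4 0 of these were higher by 2-fold on the log2(RPKM + 1) scale, which understates changes of low genes. Among them, APLNR stood at 2.05 RPKM (147 reads) with Wnt3a and 1.55 (110) with RIPK4, against 0.703 (47) with Vector. With RIPK2 and with RIPK3 APLNR was at 1.16. CER1, a secreted inhibitor of Nodal, BMP and Wnt, was lower with Wnt3a, at 44.9 against 91.0 RPKM with Vector. T, or brachyury, was listed at 0 in 5 libraries and stood at 0.0199 RPKM with RIPK3. Of 19 measured genes of the caudal epiblast and posterior growth zone 7 were kept and none was 2-fold higher, while CYP26A1, which degrades retinoic acid, stood at 0.218 RPKM with Wnt3a and 4.42 with RIPK4, against 7.74 with Vector. Below the filter, the growth factor gene FGF8 stood at 2.79 RPKM (57 reads) with Wnt3a and 1.19 (24) with RIPK4, against 0.368 (7) with Vector. The Wnt ligand gene WNT5B stood at 1.38 RPKM with Wnt3a, 0.974 with RIPK2, 1.16 with RIPK3 and 0.714 with RIPK4, against 0.156 with Vector. Of 18 intestinal genes bound or driven by CDX factors, HEPH alone was kept, at 16.4 RPKM with Wnt3a and 15.1 with RIPK4, against 11.3 with Vector. Among 19 kept Wnt/beta-catenin targets, 9 were at least 2-fold higher with Wnt3a, against 0.673% of all genes. With RIPK4 4 were so (NKD1, NOTUM, RNF43 and DACT1), against 0.396% of all genes. The medians of the list were 0.81 with Wnt3a and 0.57 with RIPK4, or 0.56 and 0.36 with the GC trend removed. AXIN2, the scaffold that feeds back on the pathway, was at 35.1 RPKM with Wnt3a and 27.8 with RIPK4, against 14.7 with Vector, and LEF1, a partner of beta-catenin on DNA, at 7.31 and 4.73 against 2.75.

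BMP signalling genes were examined beside MSX1 and MSX2. Of 11 kept BMP targets, 2 were at least 2-fold higher with RIPK2 and the same number with RIPK3, against 1.59% and 1.47% of all genes. The medians of the list were 0.44 and 0.37 (0.13 and 0.15 with the GC trend removed). The 2 genes were ID3, an inhibitor of basic helix-loop-helix factors, at 37.2 and 35.7 RPKM against 10.1 with Vector, and the GATA factor GATA2, at 4.26 and 3.63 against 1.22. GATA2 was short of 2-fold with the GC trend removed, at 0.94 and 0.83, and ID3 was at 1.5 in each. DLX5, DLX6 and ID4 of this list were lower than Vector with RIPK2 and RIPK3, all short of 2-fold. Their log2 differences were -0.71, -0.59 and -0.52 with RIPK2 and -0.77, -0.48 and -0.41 with RIPK3. ID1, ID4 and DLX5 were lower by 2-fold or more with Wnt3a, against 1.43% of all genes. The median of the list with Wnt3a came to -0.15, or -0.48 with the GC trend removed. Of 15 kept ligands, receptors and inhibitors, NOG, the secreted BMP antagonist, was at least 2-fold higher with RIPK3 at 2.99 against 0.889 RPKM (0.85 on the log2 scale with the GC trend removed), and BMP6 at least 2-fold lower with Wnt3a at 3.48 against 9.71 RPKM.

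Markers of other cells were summed, and genes of these lists at least 2-fold from Vector are named. Trophoblast is a lineage in which CDX2 is active in the mouse. Of its 12 markers 3 were at 1 RPKM or more in every library. The 12 summed to 69.5 RPKM with Wnt3a, 49.0 with RIPK1, 78.5 with RIPK2, 74.5 with RIPK3 and 65.0 with RIPK4, against 54.6 with Vector, and KRT7, ELF5, CGA, TP63 and VGLL1 stayed under 0.1 RPKM throughout. TEAD4 made 38.5 to 59.1 RPKM of these sums. Fibroblast markers, 5 of 8 at 1 RPKM or more throughout, summed to 1600 to 2290 RPKM, of which VIM made 1470 to 2040, with DCN and LUM under 0.1. Endothelial markers, 6 of 8 so, summed to 74.4 to 115 RPKM, with CLDN5 under 0.1. The 2 sums were highest in RIPK2 and RIPK3. With RIPK1 and Vector the fibroblast sums were 1600 and 1730 RPKM and the endothelial sums 77.2 and 74.4. Haematopoietic markers, 1 of 8 so, summed to 2.06 to 5.69 RPKM, with PTPRC and HBB under 0.1. With RIPK2 and with RIPK3 the same 5 markers were at least 2-fold higher than with Vector, namely GATA2, PGF, COL1A1, TIE1 and ESAM. CD68 was so with RIPK2. Of all genes 1.59% were so with RIPK2 and 1.47% with RIPK3. With the GC trend removed, GATA2, TIE1 and CD68 were short of 2-fold, and so was COL1A1 with RIPK2, at 0.97. COL1A1 stood at 82.6 RPKM with RIPK2 and 83.0 with RIPK3, against 32.6 with Vector. The trophoblast marker TFAP2C was at least 2-fold lower than Vector with RIPK3, at a log2 difference of -1.11. With RIPK2 it was at -0.95. With the GC trend removed these came to -1.18 and -1.02. With Wnt3a, RIPK1 and RIPK4 no gene of these 4 lists was 2-fold higher. The part of such cells in the levels of the 6 genes, those of MSX1 with RIPK2 and RIPK3 included, was not tested.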

How the data were processed

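The libraries were made from column-purified total RNA by the standard Illumina procedure, per the labels' protocols, and 1 table of RPKM values was deposited, with 1 column for each of the 6 libraries. GSNAP, DESeq and hg19 are named in the submitters' processing notes. No source used here gives their roles or versions, the annotation or the counting rule. Groups came from the transfection label and columns were matched by title.

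Whole reads were recovered from the RPKM values, printed to 5 significant digits, by finding 1 factor for each library and, for each gene, a length of 15 to 30000 bases at which all values are whole within rounding. This solved 17912 genes in all (87.4%) and 98.5% of those with a mean RPKM of at least 1. It was tried on simulated data in which GENCODE 29 lengths, where known, were the true ones. That trial does not cover genes solved at much shorter lengths, as CDX2, MIXL1 and NKX1-2 were. Where several lengths passed, the one nearest to GENCODE 29 with no shared divisor was preferred. If the true reads were a multiple of those given, intervals would be narrower. RPKM was used as deposited. Differences are of log2(RPKM + 1), which understates changes of low genes, and 2-fold on that scale was the call. The kinase transfected was left out of its own counts. Ratios of RPKM have exact binomial 95% intervals, and levels exact Poisson ones, which cover counting error only. GC content came from the longest GENCODE 29 transcript, and a running median over genes ordered by GC content was removed as an alternative. For CDX2, MIXL1 and NKX1-2 that transcript is longer than the length taken, so their corrected values may not hold for the bases counted.

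The genes named were the 6 genes, the kinases, AXIN2, LEF1, up to 3 genes of each of 16 lists with the greatest difference from Vector, and the 5 most like each gene. CDX4, NANOG, TDGF1, LIN28A, SALL4, T and a few other list members were added after their values were seen, and some genes the rule names are not reported here. The genes and lists were chosen with earlier results of these data known. Analyses used Python 3.11.15, numpy 2.4.6, scipy 1.17.1 and pandas 2.3.3.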

Additional observations from a re-analysis of the deposited data

How the results depend on the processing

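With 1 library in each group no replicate could be left out. No paired analysis was possible because each group holds 1 library and the columns carry no replicate number. Of the 9 comparisons, the count of the 6 genes at least 2-fold apart stayed within 1.5 times of the value given when libraries were rescaled by median ratios, when no filter was used and when the GC trend was removed. No difference called at 2-fold changed sign under any alternative run. With a pseudocount of 5, which weighs low genes down, 3 of the 6 genes were called with Wnt3a over Vector against 5, 2 with RIPK4 over Vector, RIPK1, RIPK2 or RIPK3 against 5 each, and 0 with RIPK4 over Wnt3a against 1. With a pseudocount of 0.1, 2 were called with RIPK2 and 2 with RIPK3 over Vector, against 1 each, since CDX1 was added. With ratios of RPKM and their intervals the counts for RIPK2 and RIPK3 were also 2 each, since CDX2 was added as lower. No share of all genes is given for these pseudocounts or for the ratios. Whether these counts moved with the background is therefore not known. Over all list genes, 19 were called with Wnt3a, 1 with RIPK1, 11 with RIPK2, 10 with RIPK3 and 4 with RIPK4. Of all genes, from 0.295% (RIPK1) to 1.59% (RIPK2) were called higher and from 0.387% (RIPK4) to 1.43% (Wnt3a) lower. With a pseudocount of 5 the list counts were 10, 0, 5, 3 and 2. With a pseudocount of 0.1 RIPK3 had 16 and RIPK4 8, and with ratios of RPKM RIPK2 had 17, RIPK3 16 and RIPK4 7. Depth limits CDX1 in RIPK1, RIPK2, RIPK3 and Vector and MIXL1 in the same 4 libraries, where neighbours in the order, at 0 to 9 reads, were not separable.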

Other observations

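Further developmental transcription factors had patterns unlike those of the CDX and MSX genes. BSX, a homeobox gene of the hypothalamus, was highest with RIPK2, at 0.847 RPKM with Wnt3a, 1.83 with RIPK1, 4.44 with RIPK2, 1.12 with RIPK3 and 0.545 with RIPK4, against 0.165 RPKM (2 reads) with Vector. LHX1, a LIM-type homeobox gene of the streak and organizer, stood at 2.85 RPKM with RIPK2 and 2.87 with RIPK3, against 0.498 with Vector, at ratios of 5.73 (3.80 to 8.94) and 5.76 (3.82 to 8.99), and at 0.412 with Wnt3a and 0.851 with RIPK4. TFAP2C, a factor of trophoblast and germ cells, stood at 3.6 RPKM with RIPK2 and 3.10 with RIPK3, against 7.89 with Vector.

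Among the 6 genes the size of the difference over Vector went with their own GC content for RIPK4 and Wnt3a, and little for the other kinases. From MSX2 (47.6% G and C) through MIXL1 (53.5%), NKX1-2 (54.7%), CDX2 (56.4%) and MSX1 (59.9%) to CDX1 (62.8%), the log2 differences with RIPK4 over Vector were 0.34, 1.69, 1.34, 2.02, 2.48 and 3.06. Pearson's r across the 6 genes was 0.981, and 0.977 with the trend of all genes removed. It was 0.929 with Wnt3a, -0.0458 with RIPK1, 0.182 with RIPK2 and 0.185 with RIPK3 over Vector, and -0.616 with RIPK4 over Wnt3a. The running median of all genes was 0.03 at the GC content of MSX2 and 0.38 at that of CDX1. In RIPK4 over RIPK2 and RIPK4 over RIPK3, where all genes had a rho with GC of -0.172 and 0.176, r across the 6 was 0.747 and 0.781. For MIXL1, NKX1-2 and CDX2 the longest transcript, of 2005, 3364 and 4053 bases, exceeds the length taken, of 698, 970 and 2089. The GC content of the bases counted is not known for them, so the order and r may differ for those bases. These are 6 genes chosen for their values that share libraries, so the relation is a description.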
